A study of Mus musculus with 10 samples.

Results

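The genes described are 8 proteasome genes among the 18398 genes of the deposited table, chosen by name. They are 5 genes that interferons can induce, Psmb8, Psmb9, Psmb10, Psme1 and Psme2, and the 3 constitutive catalytic genes Psmb5, Psmb6 and Psmb7. They were measured by RNA sequencing of mouse colon tissue in 5 samples labelled as normal diet and 5 labelled as pro-inflammatory diet, all of wild-type genotype. The labels do not state strain, age, what the diets held, whether each sample was a separate animal or whether colitis was induced. A p-value here therefore covers only sample-to-sample spread, part of which may be technical. The comparison asks whether proteasome gene levels in the colon depend on the diet, and how each inducible gene stands to its constitutive partner in the same library.

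The proteasome is the barrel-shaped protease that degrades ubiquitin-tagged proteins, and its inner rings hold the catalytic subunits. Psmb5 encodes the constitutive subunit of chymotrypsin-like activity, Psmb6 that of caspase-like activity and Psmb7 that of trypsin-like activity. In immune cells and in cells exposed to interferon gamma, newly built particles take up Psmb8 in place of Psmb5, Psmb9 in place of Psmb6 and Psmb10 in place of Psmb7, which gives the immunoproteasome. This changes the peptides offered to MHC class I molecules. Psme1 and Psme2 encode the alpha and beta subunits of the PA28 activator, a ring that opens the barrel, and Psme3 encodes its nuclear relative PA28 gamma. Intestinal epithelium carries constitutive particles and some immunoproteasome, and leukocytes in the gut wall are rich in the latter.

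The 5 inducible genes stood well above the normal diet range in pro-inflammatory diet libraries 2 and 5 and lay close to or within it in libraries 1, 3 and 4 of that diet. Psmb8 and Psmb9 showed this most, at 2.61 and 2.74 times the normal diet mean in library 2 and 3.53 and 3.64 times in library 5. The 3 constitutive genes differed little, with log2 fold changes from 0.12 to 0.22. None of the 8 passed the adjusted threshold of 0.05, and 0% of the 12345 genes tested did (limma with Benjamini-Hochberg adjustment). At an unadjusted p under 0.05, limma had 1007 genes higher and 1142 lower, and limma voom on whole reads also called 0 after adjustment.

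Values are FPKM, which divide a gene's fragments by its length and by the library total, and all 8 genes passed the filter of a mean of at least 1 FPKM. Libraries held 15652783 to 18341956 reads on genes, recovered from the steps of the FPKM values. The scarcest member in any library was Psmb9, with 156 to 711 reads, which is a counting error of 8.01% at the lowest. The other 7 had 360 to 2521 reads, and their counting error was at most 5.27%. Epithelial genes marked the tissue as labelled, with Epcam at 747 ± 65.5 FPKM under the normal diet and 742 ± 53.4 under the other (SD, n = 5 each). Pro-inflammatory diet libraries 2 and 5 stood apart from the other 8 in genes that mark position along the colon, while position itself was not measured. The summed level of 4 Hox genes of the distal colon was 4.6 and 31.8 FPKM in them, against 259 to 416 in the others. Fold changes and ratio differences of the members are given with and without them.

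The inducible genes occupy a few places in the mouse genome. Psmb9 (chromosome 17, 34181987 to 34187764, minus strand, GRCm38, GENCODE M21) and Psmb8 (chromosome 17, 34197721 to 34201454, plus strand) flank Tap1, a subunit of the peptide transporter of antigen presentation, in the MHC class II region. Psmb9 and Tap1 lie head to head. Their GENCODE annotations overlap by 212 bases, whereas their RefSeq starts leave 225 bases between them. Under the GENCODE annotation, reads from the overlap cannot be told apart unless the counting used strand, which no source used here states. Psmb8 starts 495 bases beyond the end of Tap1. Psme1 (chromosome 14, 55578123 to 55581529, plus) and Psme2 (chromosome 14, 55587441 to 55591113, minus) converge with 5911 bases between them. Psmb10 (chromosome 8, 105935735 to 105938444, minus), Psmb5 (chromosome 14, 54614119 to 54618022, minus), Psmb6 (chromosome 11, 70525367 to 70527858, plus) and Psmb7 (chromosome 2, 38588036 to 38644087, minus) stand elsewhere.

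Since 5 of the members share an inducer, the RefSeq promoters (GRCm38.p6, 250 bases before to 50 after each start) were searched on both strands for sites of interferon-activated factors and of the factors that drive constitutive proteasome genes. Windows were available for 7 of the 8 members, and Psmb7, which had none, was not searched. The matches are shown on each gene's own strand with the motif in capitals, and positions count from the gene's RefSeq start.
Psme1, interferon-stimulated response element: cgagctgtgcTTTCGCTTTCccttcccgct
Psmb8, gamma-activated site: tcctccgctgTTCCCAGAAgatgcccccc
Psmb5, antioxidant response element core: cgtgaagttgTGACGTCGCggcgttgcca
Psmb6, antioxidant response element core: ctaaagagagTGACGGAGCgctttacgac
The interferon-stimulated response element, searched as GAAANNGAAA, was matched in Psme1 on the opposite strand, 10 bases into the transcribed part (chr14:55578493-55578522). It was present in 3.44% of all 32851 promoter windows. The gamma-activated site, an element of interferon gamma response searched as TTCNNNGAA, was matched in Psmb8 at position -97 (chr17:34198088-34198116) and in 8.3% of all windows. The RefSeq starts of Psme1 (55578494) and Psmb8 (34198195) lie downstream of the GENCODE starts given above. Both matches therefore fall inside the GENCODE genes. The antioxidant response element core, searched as TGACNNNGC, was matched at -47 in Psmb5 (chr14:54618024-54618052) and at -9 in Psmb6 (chr11:70525338-70525366), and in 12.4% of all windows. This core is bound by NFE2L1 and NFE2L2, of which the first is known to raise proteasome genes when proteasome activity drops. No kappa B site, present in 4.51% of windows, was matched in a member that was searched. The 225 bases between the RefSeq starts of Psmb9 and Tap1 held none of these motifs. A match is a description of letters and not of binding, and sites that depart from the searched letters would be missed.

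Among the inducible catalytic subunits, Psmb8 was at 31.4, 18.8, 17.7, 20.2 and 21.1 FPKM in normal diet libraries 1 to 5 and at 24.7, 57.1, 23.5, 19.8 and 77.2 in pro-inflammatory diet libraries 1 to 5. Libraries 2 and 5 of the pro-inflammatory diet were the highest of all 10 and library 1 of the normal diet came next, while the remaining libraries of the diets overlapped. The means were 21.8 ± 5.5 and 40.4 ± 25.4 FPKM (SD, n = 5 each), with a log2 fold change of 0.68 (SE 0.36, limma adjusted p = 0.341). Without libraries 2 and 5, the log2 fold change of Psmb8 was 0.07.

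Psmb9, the partner of Psmb6, was at 14.1, 8.96, 9.32, 12.1 and 10.8 FPKM on the normal diet and at 12.1, 30.2, 14.8, 11.1 and 40.3 on the pro-inflammatory diet. The same pair of libraries was highest, and libraries 1, 3 and 4 of the pro-inflammatory diet mixed with the normal diet. Its log2 fold change was the largest of the 8 genes at 0.75 (SE 0.33, limma adjusted p = 0.275), and 0.19 without libraries 2 and 5. Psmb8 kept a level of 1.59 to 2.22 times that of Psmb9 in every library.

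Psmb10, the partner of Psmb7, was the most abundant inducible catalytic gene per length, at 60.4, 44.4, 51.3, 52.2 and 51.7 FPKM on the normal diet and 57.2, 87.6, 66.5, 55.1 and 92.5 on the pro-inflammatory diet. Its pattern had the same pair of high libraries with a smaller step, 1.68 and 1.78 times the normal diet mean. The log2 fold change was 0.43 (SE 0.15, limma adjusted p = 0.209), and 0.19 without libraries 2 and 5.

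The PA28 activator genes were highest in the same pair of libraries. Psme1 was at 105, 78.9, 78.6, 83.2 and 82.5 FPKM on the normal diet and at 91.8, 128, 94.8, 94.1 and 162 on the pro-inflammatory diet. Psme2 was at 71.2, 61.6, 62.2, 75.4 and 68.3 FPKM against 66.9, 105, 72.9, 74.3 and 116. Libraries 2 and 5 were the highest of all 10 for both genes, and in the other 3 libraries of that diet Psme2 lay within the normal diet range. The log2 fold changes were 0.38 for Psme1 (SE 0.16, limma adjusted p = 0.264) and 0.32 for Psme2 (SE 0.15, adjusted p = 0.294), and 0.13 and 0.08 without libraries 2 and 5. The ratio of Psme1 to Psme2, whose proteins share a ring, stayed between 1.1 and 1.48 in all 10 libraries.

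**Figure D1:**
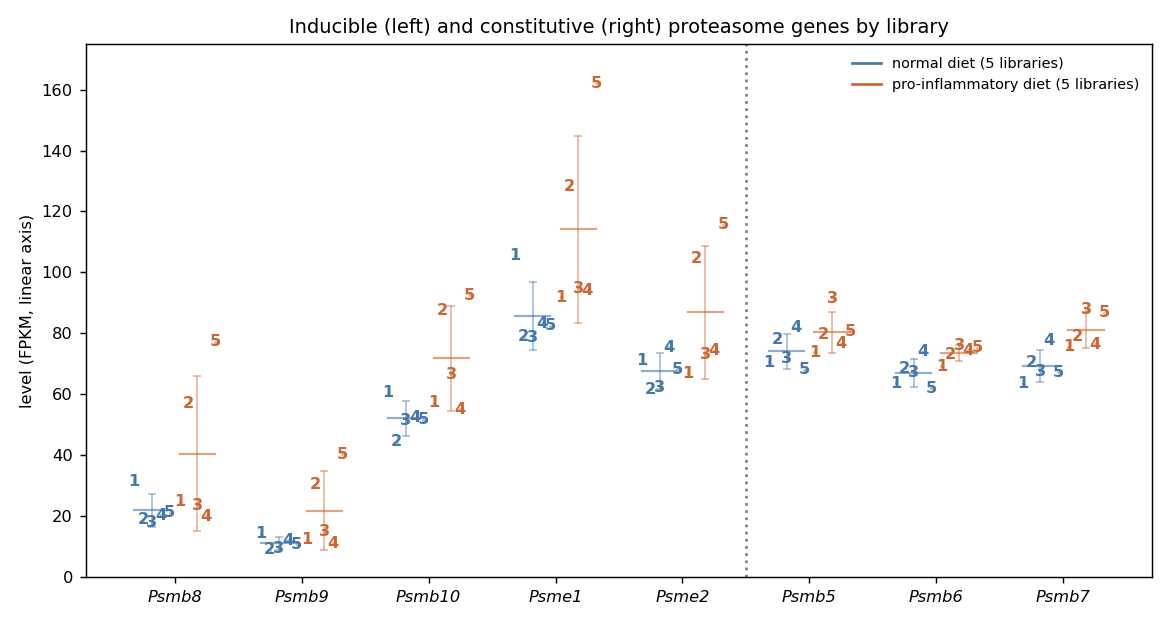
Level of each gene in FPKM on a linear axis, with each digit marking a library by its number in its diet group (blue normal, orange pro-inflammatory), the bar the mean and the whisker 1 SD (n = 5). Orange 2 and 5 are the highest values for all 5 inducible genes, at 57.1 and 77.2 FPKM for Psmb8, and are not set apart for the constitutive genes.

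Psme2b (chromosome 11, 48945354 to 48946190, GRCm38), a copy of Psme2 with its own row in the table, had 22.4 ± 2.84 FPKM under the normal and 30.5 ± 8.8 under the pro-inflammatory diet (SD, n = 5 each). No source used here states how reads shared by Psme2 and this copy were counted, so the level of Psme2 is uncertain to that extent. Psme3, the relative that interferons do not induce, was at 28.6 ± 3.15 and 29.2 ± 3.89 FPKM, with a log2 fold change of 0.03 (SE 0.10, limma adjusted p = 0.889).

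The constitutive catalytic genes varied less. Psmb5 was at 70.5, 78.1, 71.7, 81.8 and 68.1 FPKM on the normal diet and at 73.8, 79.6, 91.4, 76.5 and 80.7 on the pro-inflammatory diet. Psmb6 was at 63.6, 68.4, 67.0, 73.9 and 62.0 FPKM against 69.2, 73.1, 76.1, 74.4 and 75.3. Psmb7 was at 63.6, 70.4, 67.6, 77.6 and 67.3 FPKM against 75.5, 79.1, 87.7, 76.4 and 86.8. Library 3 of the pro-inflammatory diet was the highest for all 3, and each inducible gene was lower in it than in libraries 2 and 5. Normal diet library 4 was the highest of its group for each and lay inside the range of the pro-inflammatory diet. The log2 fold changes were 0.12 for Psmb5 (SE 0.07), 0.14 for Psmb6 (SE 0.06) and 0.22 for Psmb7 (SE 0.07), with limma adjusted p values of 0.403, 0.268 and 0.183. Without libraries 2 and 5 they were 0.12, 0.13 and 0.20, so these small differences did not rest on that pair.

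Of the 5 inducible genes 3, and of the 3 constitutive genes 2, were higher at an unadjusted limma p under 0.05, where 8.16% of all genes tested were. For 0 of the 8 did the values of the diets not overlap, where 1.77% of all genes lay wholly higher on the pro-inflammatory diet. The median log2 fold change was 0.431 for the inducible and 0.135 for the constitutive genes, against -0.013 over all genes tested. Without pro-inflammatory diet libraries 2 and 5 the medians of the inducible and constitutive genes were close to each other, at 0.133 and 0.128.

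By mean level per length on the normal diet, the order was Psme1 (85.7 FPKM), Psmb5 (74.0), Psmb7 (69.3), Psme2 (67.7), Psmb6 (67.0), Psmb10 (52.0), Psmb8 (21.8) and Psmb9 (11.0). Psme1 stood above Psmb5 by about its own SD of 11.2 FPKM. From Psmb5 to Psmb6 the neighbours differed by less than 1 SD, while the steps from Psmb6 to Psmb10, to Psmb8 and to Psmb9 were larger than the SD of either gene. On the pro-inflammatory diet, Psme1 (114 FPKM) and Psme2 (86.9, SD 21.8) came first, and Psmb8 and Psmb9 stayed last at 40.4 and 21.7. The second place of Psme2 rested on libraries 2 and 5. Without them its mean was 71.4 FPKM, below Psmb5 (80.6), Psmb7 (79.8) and Psmb6 (73.2), while Psme1 stayed first at 93.6. The constitutive genes kept near-equal levels, with a ratio of Psmb5 to Psmb6 of 1.03 to 1.2 and of Psmb5 to Psmb7 of 0.929 to 1.11 over the 10 libraries.

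Ratios of an inducible gene to its partner are taken within a library, so no scaling of the library alters them, but they depend on the gene lengths that the authors used and describe messenger RNA rather than assembled particles. The Psmb8 to Psmb5 ratio was 0.446, 0.24, 0.247, 0.247 and 0.31 in normal diet libraries 1 to 5. In pro-inflammatory diet libraries 1 to 5 it was 0.334, 0.717, 0.257, 0.259 and 0.957. Only libraries 2 and 5 exceeded every normal diet library, and in library 5 the levels of the partners were close to equal. The mean ratio was 0.298 ± 0.0873 against 0.505 ± 0.316 (SD, n = 5 each), a log2 difference of 0.58 (SE 0.43, two-sided exact permutation p = 0.214, adjusted p = 0.238 over 5 ratios). Without libraries 2 and 5 the log2 difference was -0.04.

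The Psmb9 to Psmb6 ratio was 0.222, 0.131, 0.139, 0.163 and 0.174 on the normal diet and 0.175, 0.413, 0.194, 0.149 and 0.535 on the pro-inflammatory diet. Psmb9 was thus the scarcest inducible subunit relative to its partner in each of the 10 libraries. The log2 difference was 0.66 (SE 0.39, two-sided exact permutation p = 0.151, adjusted p = 0.238), and 0.08 without libraries 2 and 5. The Psmb10 to Psmb7 ratio was 0.95, 0.631, 0.759, 0.673 and 0.768 on the normal diet and 0.758, 1.11, 0.759, 0.721 and 1.07 on the pro-inflammatory diet. Libraries 2 and 5 were the only ones in which the inducible gene of this pair exceeded the constitutive one. Its log2 difference was 0.21 (SE 0.17, two-sided exact permutation p = 0.238, adjusted p = 0.238), and -0.01 without that pair.

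The activator genes have no catalytic partner and were set against Psme3. The Psme1 to Psme3 ratio was 4.15, 2.79, 2.6, 2.52 and 3.19 on the normal diet and 3.54, 4.2, 2.67, 3.41 and 6.08 on the pro-inflammatory diet. The Psme2 to Psme3 ratio was 2.8, 2.17, 2.06, 2.28 and 2.64 against 2.58, 3.42, 2.06, 2.7 and 4.34. Library 5 was the highest for both, whereas library 2 stood only just above normal diet library 1 for Psme1. The log2 differences were 0.35 (SE 0.24) and 0.30 (SE 0.20), with two-sided exact permutation p values of 0.159 and 0.214, both 0.238 adjusted. Without libraries 2 and 5 they were 0.09 and 0.03. None of the 5 ratios passed, and the smallest p that 5 against 5 libraries can give is 0.00794.

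**Figure D2:**
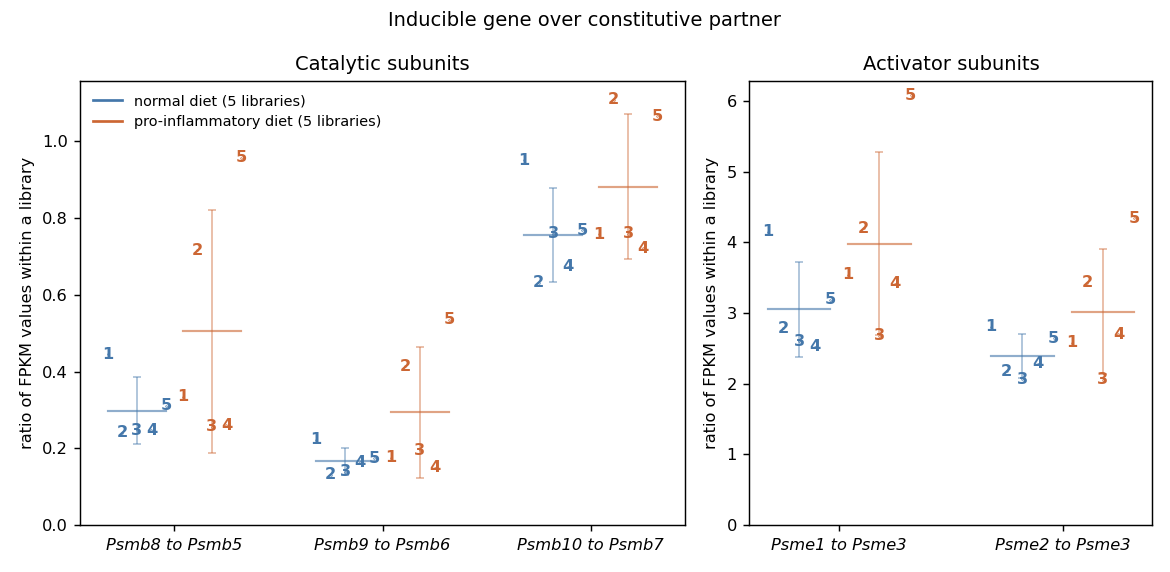
Ratio of FPKM values within each library, on linear axes from 0, with digits for libraries, bars for means and whiskers for 1 SD (n = 5 a diet, blue normal, orange pro-inflammatory). Orange 5 is at 0.957 for Psmb8 to Psmb5 and orange 2 at 0.717, while the other 3 orange libraries lie among the blue ones.

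The other subunits of the particle showed small differences in one direction. The 20S core is built of alpha rings, which form the gate, and beta rings, and the 19S cap of ATPases and further subunits recognises and unfolds substrates. Of 29 further subunits tested, 28 had log2 fold changes above 0, where 47.1% of all genes tested did. At an unadjusted limma p under 0.05, 14 were higher, where 8.16% of all genes tested were. Their median log2 fold change was 0.153, and 0.159 without libraries 2 and 5. None passed the adjusted threshold.

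In the alpha rings, 7 of 7 tested genes were on the higher side. Psma2 was at 93.5 ± 4.86 against 108 ± 5.74 FPKM (SD, n = 5 each), with a log2 fold change of 0.20 (SE 0.06, limma adjusted p = 0.173). Its values alone among the 29 did not overlap between the diets. Of all genes tested, 1.77% lay wholly higher on the pro-inflammatory diet. Psma4 had a log2 fold change of 0.20. Among the non-catalytic beta subunits, Psmb3 had 87.8 ± 5.65 FPKM under the normal and 106 ± 9.23 under the pro-inflammatory diet (log2 fold change 0.27, SE 0.07, limma adjusted p = 0.173) and Psmb2 had 0.26. Of the 19S ATPases, Psmc4 had means of 48.9 ± 5.9 and 61.3 ± 4.36 FPKM (log2 fold change 0.32, SE 0.08, limma adjusted p = 0.173) and Psmc3 had 0.18, while Psmc6 had -0.02. Of the other 19S subunits, Psmd14, the deubiquitinase of the cap, and Psmd13 had log2 fold changes of 0.23 and 0.21.

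Assembly and regulation genes did not share one direction. Of 8 tested assembly chaperones 7 had values above 0, with a median of 0.052, and Pomp, the maturation factor of the core, and Psmg4 both had 0.20. The activator Psme4 and the inhibitor Psmf1 had log2 fold changes of 0.08 each. Nfe2l1, the transcription factor that raises proteasome genes, was at 55.7, 58.7, 55.8, 51.0 and 53.9 FPKM on the normal diet and at 50.2, 43.3, 47.9, 46.2 and 41.5 on the pro-inflammatory diet. All 5 pro-inflammatory values lay below all 5 normal ones, which held for 2.07% of all genes, and the log2 fold change was -0.26 (SE 0.06, limma adjusted p = 0.166), and -0.19 without libraries 2 and 5. Ddi2, the protease that activates its product, had -0.16, and -0.28 without them. The tissue-restricted subunits were near 0, with Psma8 at no more than 0.0525 FPKM on average in either diet and Psmb11, the thymic subunit, listed at 0 in 9 of 10 libraries.

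**Figure D3:**
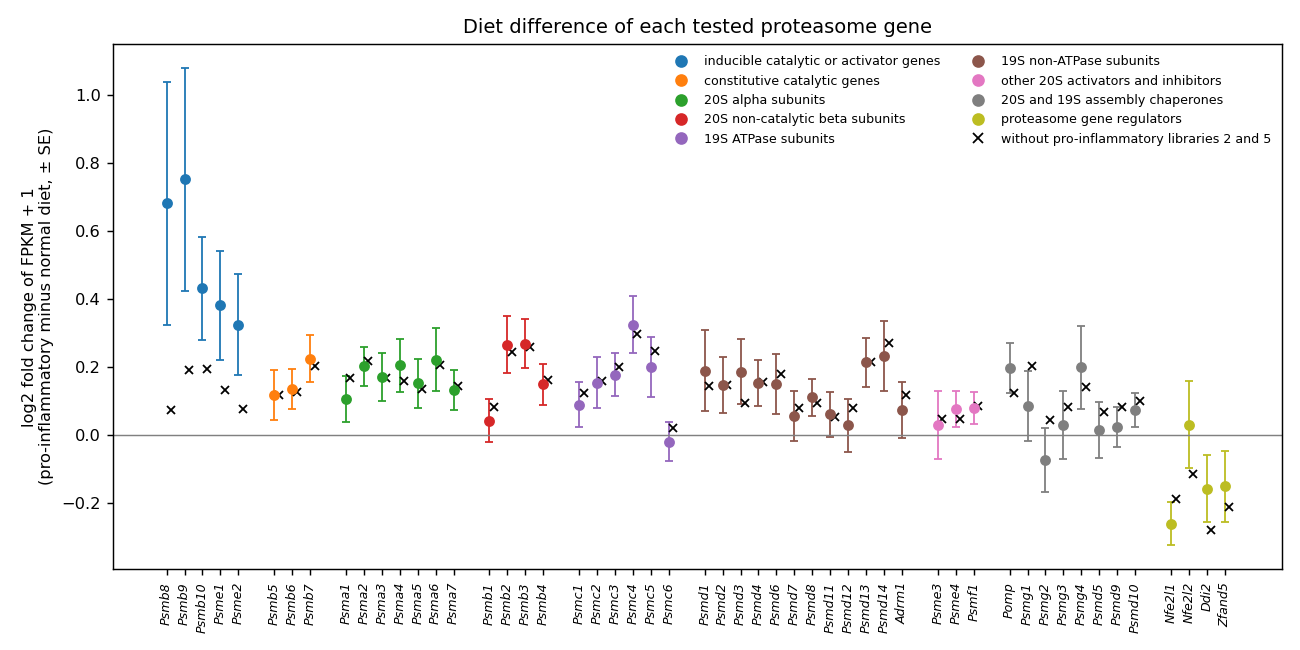
Log2 fold change of FPKM + 1, pro-inflammatory minus normal diet, for each tested proteasome gene by role (circles, ± SE), with black crosses for the fit without pro-inflammatory diet libraries 2 and 5. The crosses lie far below the circles for the 5 inducible genes (0.07 against 0.68 for Psmb8) and close to them for the core subunits, such as Psmb7 at 0.20 against 0.22.

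The genes most like the inducible members were ranked by Pearson's r, over all 10 libraries, between log2(FPKM + 1) and the mean of the 5 standardised members. This measure rests largely on pro-inflammatory diet libraries 2 and 5, so r over the other 8 libraries is given beside it. Of the first 10 genes 9 are given here. The highest of these were Psme2b (0.985 and 0.9), the nucleic acid sensor Zbp1 (0.984 and 0.866) and Tap1 (0.984 and 0.848). Psme2b may share reads with Psme2, and Tap1 with Psmb9, and both members are part of the mean. What this adds to r was not tested. Then came 4833439L19Rik (0.981 and 0.815), Birc5, a mitosis gene (0.981 and 0.903), Gm5431 (0.979 and 0.784) and the interferon-induced Cmpk2 (0.977 and 0.829). Msra (0.975 and 0.751) and Spdl1, a spindle gene (0.975 and 0.777), closed the first 10. For the 3 constitutive members the nearest genes were Pdap1 (0.975, and 0.977 over 8), the RNA helicase gene Ddx39a (0.972 and 0.979) and Psmd4, a ubiquitin receptor of the cap (0.967 and 0.974).

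Interferon gamma signalling genes were followed by a list of 11. Ifng itself was too low to be tested. It was highest in normal diet library 2, at 0.264 FPKM, with 0.236 and 0.208 in pro-inflammatory diet libraries 2 and 5. Of 10 tested genes 7 had log2 fold changes above 0 and 0 passed, at a median of 0.177, and 0.045 without libraries 2 and 5. Socs1, a feedback inhibitor of interferon signalling, had 0.44, and 0.11 without the pair. Class I peptide loading genes, which handle what the proteasome makes, had 10 of 10 above 0 and 0 passing, at a median of 0.285, and 0.033 without the pair. Tap1 was at 12.3, 6.94, 7.8, 7.66 and 8.43 FPKM on the normal diet and at 10.1, 25.3, 9.31, 8.53 and 40.3 on the pro-inflammatory diet. The chaperones Calr and Pdia3 had 0.30 and 0.20, and 0.23 and 0.16 without the pair.

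T and natural killer cell genes and macrophage and dendritic cell genes had their highest sums in the libraries where the inducible genes were highest, while B cell and follicle genes had theirs in another library. The 11 measured T and natural killer cell genes summed to 10.5 to 14.6 FPKM on the normal diet. Under the pro-inflammatory diet the sum was 66.3 in library 2 and 41.6 in library 5, with 12.4 to 23.6 in the remaining 3. All 9 tested genes of that list had log2 fold changes above 0, at a median of 0.666, and 0.145 without libraries 2 and 5, with Cd3g at 0.84 and Cd2 at 0.67 in all libraries and 0.32 and 0.56 without that pair. Ptprc, the leukocyte common antigen, had 0.38, and 0.13 without them. Macrophage and dendritic cell genes summed to 1006 and 826 FPKM in libraries 2 and 5, while the remaining 3 of that group had 428 to 742 and the normal diet libraries 422 to 602. Of 8 tested genes of this list 8 had log2 fold changes above 0, at a median of 0.197, and 0.027 without libraries 2 and 5. Cd74 had 0.53 and Itgax 0.33, and 0.07 and 0.14 without that pair, where Adgre1, Csf1r, C1qa and C1qb were below 0. B cell genes summed to 57.7 and 40.8 FPKM in libraries 2 and 5, against 19.8 to 45.8 on the normal diet, so library 5 lay within that range. Library 1 of the pro-inflammatory diet held the highest B cell sum, 84.3 FPKM, and the highest lymphoid follicle sum, 44.8, with Psmb8 at 24.7. Among these genes Cd79a, Cd79b and Cxcl13 had log2 fold changes of 0.41, 0.40 and 0.50. No gene of these lists passed the adjusted limma threshold. In bulk tissue, more cells of a type and more RNA per cell cannot be told apart.

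Covariates were added 1 at a time to the fit across all genes. With the mean log2 score of the T and natural killer cell list, the log2 fold changes were 0.03 for Psmb8, 0.18 for Psmb9, 0.19 for Psmb10, 0.15 for Psme1 and 0.08 for Psme2. With the score of the 4 distal Hox genes they were 0.17, 0.28, 0.22, 0.18 and 0.13. The constitutive genes had 0.13, 0.14 and 0.22 with the first covariate and 0.12, 0.13 and 0.21 with the second, near their values without one. Both scores separate libraries 2 and 5 from the rest, so the scores, any difference in position along the colon and these libraries cannot be told apart.

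In normal diet library 1 most inducible genes were high for its group, beside a low T cell sum. It ranked 3 or 4 from the top of the 10 libraries for Psmb8, Psmb9, Psmb10 and Psme1, and 6 for Psme2. Its T and natural killer cell sum was 10.5 FPKM, among the lowest of the 10. For the constitutive genes it ranked 9 or 10.

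**Figure D4:**
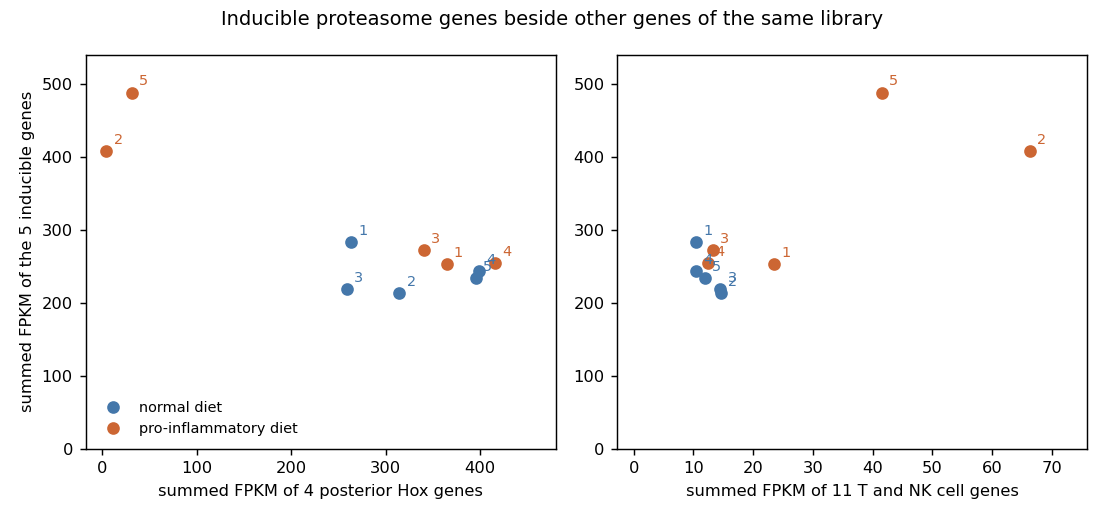
Summed FPKM of the 5 inducible genes in each library against the summed FPKM of 4 distal colon Hox genes and of 11 T and natural killer cell genes (blue normal, orange pro-inflammatory diet, digits for libraries). Orange 2 and 5, with sums of 408 and 488 FPKM, lie at the low end of the Hox axis and the high end of the other axis, and the remaining 8 libraries lie between 213 and 283.

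Sums of tissue genes overlapped between the diets. Summed smooth muscle genes ran from 2213 to 3354 FPKM on the normal and 1917 to 2701 on the pro-inflammatory diet, and all 6 smooth muscle genes had log2 fold changes below 0, at a median of -0.334, and -0.293 without libraries 2 and 5. Summed epithelial genes ran from 4793 to 6220 FPKM on the normal diet and from 5743 to 6850 in pro-inflammatory diet libraries 1, 3 and 4, with 9523 and 8661 in libraries 2 and 5. Much of the height of the last 2 sums came from Car1, at 3568 and 2334 FPKM there against 165 to 845 elsewhere. Single genes of the list did not all move together in that pair. Cdh17 (299 and 300 FPKM), Krt20 (644 and 680), Vil1 (305 and 317) and Cdx2 (123 and 118) were, like Car1, at their highest. Cdh1 was at its lowest (233 and 254, against 313 to 359 elsewhere). Epcam (663 and 805), Krt8 (2268 and 2370) and Lgals4 (1421 and 1482) were not set apart. Whether the pair held more epithelium was not tested. Of 9 epithelial genes 7 were above 0 and Epcam and Cdh1 below (-0.01 and -0.20), and the list median was 0.238, and 0.089 without that pair. Acta2 and Tagln of smooth muscle had log2 fold changes of -0.36 and -0.34. Car1 and Cdh17 of the epithelium, the 2 with the smallest p, had 1.88 and 0.23, and 0.97 and 0.09 without libraries 2 and 5. None of these genes passed. Their part in the small differences of the constitutive and core subunits was not tested. Normal diet library 4 held skeletal muscle genes at a sum of 281 FPKM, against 8.44 to 20.2 in the other 9. Adipocyte genes summed to 46.6 and 26.0 FPKM in libraries 2 and 5 of the pro-inflammatory diet and to 0.249 to 22.2 elsewhere. The pancreatic genes Prss2, Cpa1 and Pnlip had means of at most 0.127 FPKM in either diet. Cela1, the other gene of that list, was at 28.9 and 50.5 FPKM in libraries 2 and 5 of the pro-inflammatory diet and at 209 to 282 in the remaining 8. Clock output genes summed to 69.0 to 89.2 FPKM in normal diet libraries 1, 2 and 3 and to 89.3 and 129 in libraries 2 and 5 of the other diet, while the remaining 5 libraries had 177 to 233.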

How the data were processed

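RNA from 10 mouse colon samples was sequenced as pairs from stranded mRNA libraries, per the labels' protocols. The authors deposited 1 FPKM value per gene symbol and sample. Tools named, with no role, in the submitters' processing notes are HISAT2, Bowtie2, Trimmomatic, StringTie, Cufflinks, HTSeq and DESeq, with the build mm10. FPKM divides by gene length and library total, so a few abundant genes lower all others. Samples were grouped by the treatment label. A mean of 1 FPKM or more was required of a gene, and limma 3.58.1 (R 4.3.3) was fitted to log2(FPKM + 1) using a variance trend over the mean and a Benjamini-Hochberg threshold of 0.05, and fold changes on this scale understate those of low genes. Ratios used log2 values without a pseudocount and exact permutation tests (scipy 1.17.1) over 252 splits. Whole reads came from the FPKM steps for 18398 of 18398 genes within 0.01 read. The scripts were tested on simulated data.

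The members and gene lists were chosen with earlier results of these data known. Genes named are the members, Psme3, the 2 tested genes with the smallest p of each list (some that the rule picks are not reported here), genes most like the members, and a few picked after their values were seen (Tap1, Ifng, Psmb11, Psma8, Psmc6, Adgre1, Csf1r, C1qa, C1qb, Cdh1, Epcam, Prss2, Cpa1, Pnlip). Of 149 listed genes 147 were in the table. Alternatives changed the pseudocount, filter, scaling, variance model, weights, test, denominator, replicate block, covariates and libraries. Coordinates are from GENCODE M21 on GRCm38, the assembly of mm10.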

Additional observations from a re-analysis of the deposited data

Results flagged for a closer look

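Normal diet library 1 lay far from the other 4 libraries of its group for 2 of the genes. Psmb8 was at 31.4 FPKM in it against 17.7 to 21.1 in the others, a gap of 0.753 of the group's range, and Psme1 at 105 FPKM against 78.6 to 83.2, a gap of 0.828. The critical value for 5 samples is 0.71. Of 28 groups of 5 values checked 2 exceeded it, and chance alone gives about 1 in 20.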

How the results depend on the processing

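Under all 24 alternatives of the gene fit, 0 genes passed the adjusted threshold, and the log2 fold changes of the 8 members stayed above 0. They ranged from 0.03 to 0.88 for Psmb8, 0.18 to 0.93 for Psmb9, 0.19 to 0.52 for Psmb10, 0.13 to 0.46 for Psme1, 0.08 to 0.41 for Psme2, 0.06 to 0.15 for Psmb5, 0.08 to 0.17 for Psmb6 and 0.16 to 0.26 for Psmb7. The small differences of Psmb5, Psmb6 and Psmb7 depended on scaling. They were 0.06, 0.08 and 0.17 by quantile normalization and 0.13, 0.15 and 0.24 by median-of-ratios scaling. Without pro-inflammatory diet libraries 2 and 5 the ratio of Psmb8 to Psmb5 turned from 0.58 to -0.0411 on the log2 scale and that of Psmb10 to Psmb7 from 0.21 to -0.0065, and this fit keeps 3 libraries of that diet. The other 3 ratios kept their direction under all 16 alternatives. Psme3, near 0, ranged from -0.0401 to 0.0818 when 1 library was left out, and turned to -0.0095 without normal diet library 1, -0.0033 without normal diet library 5, -0.0401 without pro-inflammatory diet library 3 and -0.0087 without normal diet libraries 1, 2 and 3. Same-numbered samples did not deviate together (correlations from -0.263 to 0.061). With the replicate number as a block 0 genes passed, the log2 fold change of Psmb8 was unchanged at 0.68, and its ratio to Psmb5 had an adjusted p of 0.375 by sign flips.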
